A study of Saccharomyces cerevisiae with 8 samples.

Results

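The genes described here encode ribonucleotide reductase (RNR1, RNR2, RNR3 and RNR4) and the 6 subunits of the MCM replicative helicase (MCM2, MCM3, MCM6, CDC54, CDC46 and CDC47) of the budding yeast Saccharomyces cerevisiae. They were chosen by gene function, with earlier results of these data known. All 10 were found by name among 6256 measured genes, each with 1 probe in 2 spots. CDC54, CDC46 and CDC47 are the array's names for the genes now called MCM4, MCM5 and MCM7. The samples are 4 of a924E1, a mutant sensitive to pressure, and 4 of KA31a, the strain it came from. Cultures of either strain were kept in YPD, a rich medium with glucose, at 30 °C for 48 h, and the labels name no pressure treatment, no mutated gene and no marker alleles. Each sample was hybridised to 1 one-colour array, and the question is how transcript levels of the mutant compare with those of its parent. By the design text the samples are biologically independent, but no label names the cultures they came from, and the p-values below measure only the spread between them.

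Ribonucleotide reductase turns ribonucleotides into the deoxyribonucleotides from which DNA is made. In yeast its large subunit is mostly Rnr1, with Rnr3 as an isoform that is strongly induced by DNA damage. Its small subunit pairs Rnr2, which carries the di-iron centre and tyrosyl radical, with Rnr4, a related protein without the iron ligands. The MCM proteins form a six-membered ring that is loaded on origins in G1, before DNA synthesis, and then unwinds DNA at the fork. Transcription of RNR1 and of several MCM genes is known to peak around the start of the cell cycle, and glucose-grown cultures of this age have usually left exponential growth.

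Signal differed greatly between arrays, and the mutant arrays were dimmer than their parent neighbours. Above background here means that each of a gene's 2 spots reached a signal-to-noise ratio of 3 on that array, and the share of genes that did was 9.62% to 75.2% on the mutant arrays and 24.5% to 84.3% on the parent arrays. Mutants 1 and 3 and parents 2, 4 and 6 were scanned at a photomultiplier gain of 600, while mutants 5 and 7 and parent 8, which were dimmest, were scanned at 700. The slide has 2 columns, 1 for each strain, and the effect of column and that of strain cannot be told apart. As a check of the cells, 5 of 6 marker genes of a cells, 2 of 4 of alpha cells and 3 of 8 of sporulating diploid cells were above background on at least 1 array. Net intensity (spot median less local background) summed over the a-cell markers was 68.5 to 1001.5 on mutant and 71.0 to 952.0 on parent arrays, over the alpha-cell markers 4.0 to 90.5 and 10 to 224.5, and over the sporulation markers 6.5 to 132.0 and 8.5 to 240.5. STE2, the alpha-factor receptor of a cells, and BAR1, the secreted protease of a cells, rose by 0.58 and 0.49 on the log2 scale. Each of them was above background on only 2 mutant arrays. None of the other markers passed the test, and the part of cell type in the results below was not tested.

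Of the 10 genes, 2 were lower in the mutant and none was higher. RNR2 fell 2.24-fold and MCM3 1.54-fold. The test was limma's moderated linear model over all 6256 genes, 4 arrays against 4, with Benjamini-Hochberg adjustment and a threshold of 0.05. In it 26.6% of all genes passed, 14% lower and 12.7% higher, so 2 of 10 is near the share among all genes. At an unadjusted p under 0.05, 4 of the 10 genes were lower, beside 36.7% of all genes in either direction. That share includes genes higher in the mutant, and the share lower alone was not counted, so the comparison is not like with like. By sign alone 9 of 10 read lower, whereas 57.6% of all genes read higher. The median of the 10 log2 differences was -0.21, against 0.05 over all genes. Over all genes the sign varied with detection. Of genes above background on no array 87.3% read higher, and genes above background on 4 parent and 0 to 2 mutant arrays had a median of -0.51. The part of detection in the signs of the 10 was not tested. The strains did not overlap for 3 genes (RNR2, RNR4 and MCM3), all lower in the mutant, where 29.9% of all genes did not overlap. Of all genes, 14.7% were lower without overlap and 15.2% higher. In bulk RNA, fewer cells that express a gene and less RNA per cell cannot be told apart.

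**Figure D1:**
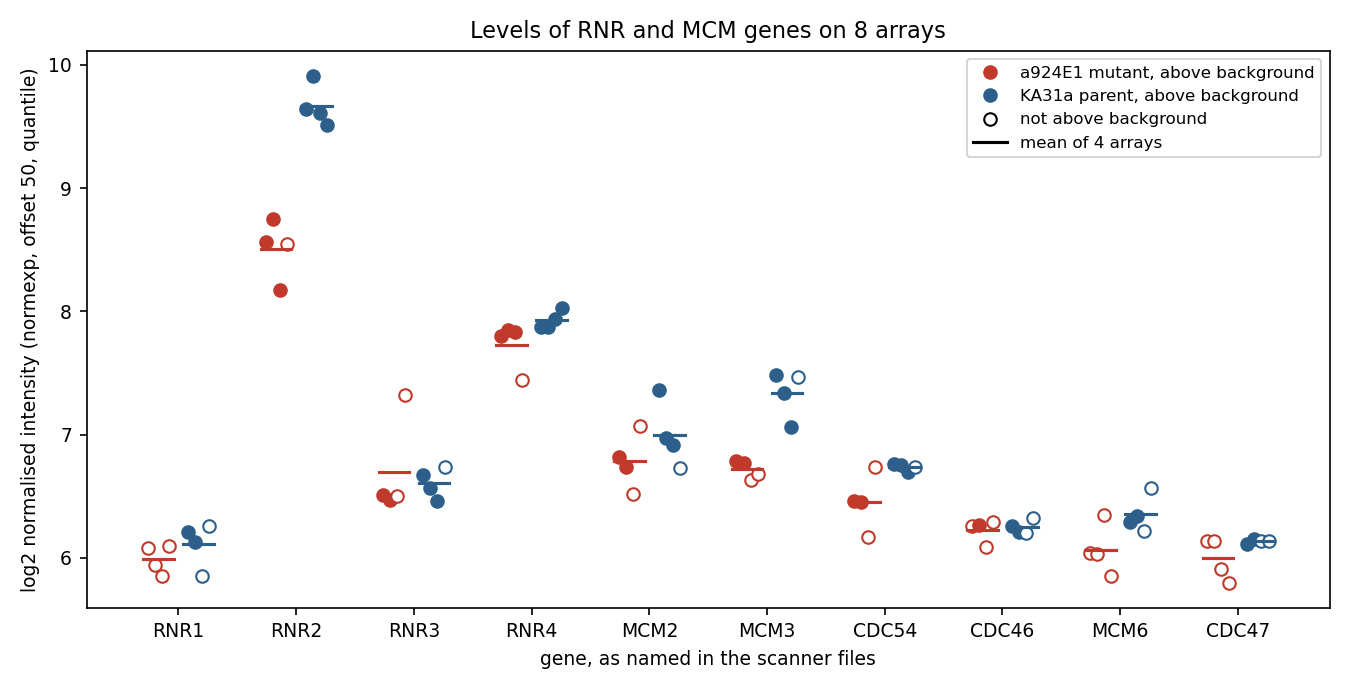
Log2 normalised intensity of the 10 genes on each of the 4 mutant arrays (red) and 4 parent arrays (blue), in the order of their array numbers. Filled points are above background, open points are not, and lines are means of 4 arrays. The strains are clearly apart for RNR2 and MCM3, and most points of RNR1, CDC46, MCM6 and CDC47 are open.

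Detection limits what can be said. Parents 2 and 4 had all 10 genes above background, parent 6 had 6 and parent 8 had 2. Among the mutant arrays, mutant 3 had 7, mutant 1 had 6, mutant 5 had 2 and mutant 7 had 0. No gene was above background on all 8 arrays, and RNR2 and RNR4 alone were above background on all 4 parent arrays. RNR1, MCM6 and CDC47 were above background on no mutant array, so the log2 differences printed for them are readings near background, not measured sizes. No fold, not even as a bound, is given for these 3, since the lowest level above background, averaged over the 4 mutant arrays, was not below the parent mean. On mutants 1 and 3 alone that level was lower, at log2 6.1 and 5.97, and on mutants 5 and 7 it was 7.13 and 7.97.

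RNR2, which encodes the radical-bearing small subunit, showed the clearest difference. Its net intensity was 561.0, 921.5, 92.0 and 36.0 units on mutants 1, 3, 5 and 7, and 1903.0, 2698.0, 763.0 and 216.5 units on parents 2, 4, 6 and 8. Within each of the 4 slide rows, which hold 1 array of each strain, the parent array was the brighter. After background correction and quantile normalization, which removes overall differences in brightness, its log2 level was 8.56, 8.75, 8.17 and 8.55 in the mutant and 9.64, 9.91, 9.61 and 9.51 in the parent. All mutant values lay below all parent values, and the reading of mutant 7 was not above background. The difference was -1.16 ± 0.14 (SE, n = 4 per strain, limma adjusted p = 1.52e-04), with a 95% interval of -1.47 to -0.85. Ranked by this normalised level among the 6256 genes of its own array, RNR2 stood at percentile 87.1, 89.2, 82.5 and 87.4 in the mutant. In the parent it stood at 95.1, 96.1, 94.9 and 94.5. Quantile normalization ties the level to the rank, so these percentiles restate the levels and are no separate check. By slide row the log2 difference was -1.08, -1.16, -1.44 and -0.95. In row 3, at -1.44, mutant 5 was scanned at gain 700 and parent 6 at gain 600. With gain as a block the difference was -1.10 (limma adjusted p = 3.31e-04), within gain 600 -1.16 (0.00376) and within gain 700 -0.95 (0.352). Scaling to the 75th percentile or the median in place of quantile normalization gave -1.25 and -1.31, but adjusted p = 0.108 and 0.323.

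RNR4, the partner of RNR2 in the small subunit, did not pass. Its log2 level was 7.80, 7.85, 7.83 and 7.44 on mutants 1, 3, 5 and 7, and 7.87, 7.87, 7.94 and 8.03 on parents 2, 4, 6 and 8. The strains did not overlap, but the slide rows of mutants 1 and 3 gave differences of only -0.07 and -0.02, and mutant 7, where the gene was not above background, stood lowest. The difference was -0.20 ± 0.12 (SE, n = 4 per strain, limma adjusted p = 0.245), with a 95% interval of -0.45 to 0.06, so a fall as large as that of RNR2 lies outside the interval. Without mutant 7 the difference was -0.11 (0.42).

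Whether RNR2 and RNR4 differed in their response was tested on the within-array difference of their log2 levels. RNR2 minus RNR4 was 0.75, 0.90, 0.34 and 1.12 in mutants 1, 3, 5 and 7, and 1.77, 2.04, 1.67 and 1.48 in parents 2, 4, 6 and 8. All mutant values were below all parent values, and the means differed by -0.96. The exact two-sided permutation test gave p = 0.0286, the smallest that 4 against 4 allows, and 0.0571 after Benjamini-Hochberg adjustment over the pair of small-subunit and the pair of large-subunit genes. The adjusted value thus missed 0.05. With so few arrays it could pass only if RNR1 minus RNR3 also gave a p under 0.05, so the miss by itself decides nothing.

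**Figure D2:**
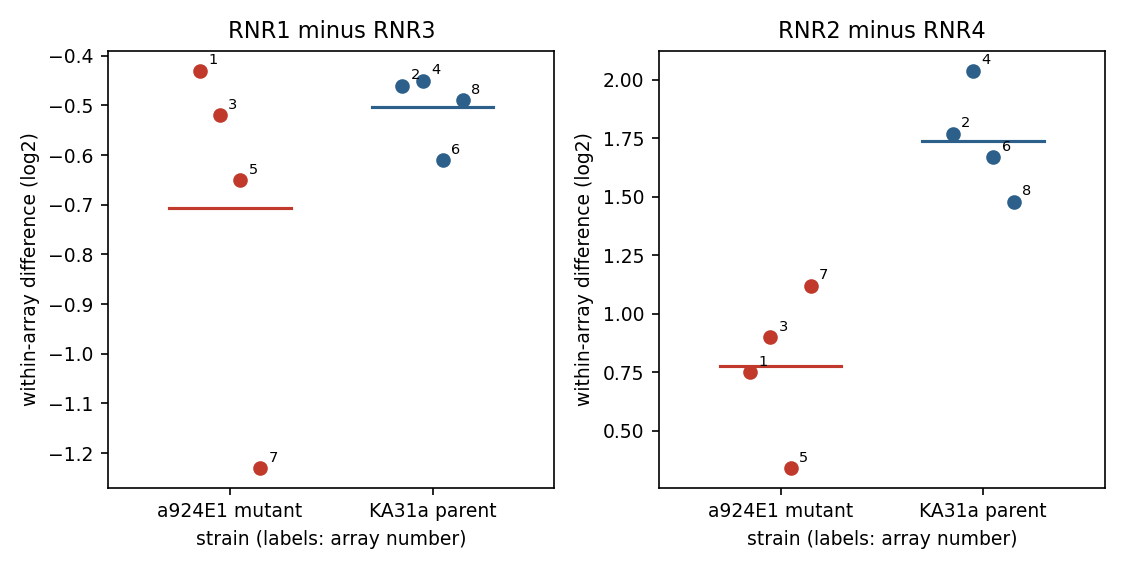
Within-array log2 difference between the large-subunit genes (RNR1 minus RNR3, left) and between the small-subunit genes (RNR2 minus RNR4, right), 1 point per array with its array number, lines at the means of 4. The strains overlap on the left and do not overlap on the right, with mutant arrays at 0.34 to 1.12 and parent arrays at 1.48 to 2.04.

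The large-subunit genes were near background. RNR1 had log2 levels of 6.08, 5.94, 5.85 and 6.1 on mutants 1, 3, 5 and 7, none above background, and 6.21, 6.13, 5.85 and 6.26 on parents 2, 4, 6 and 8, of which parents 2 and 4 were above background. The strains overlapped (limma adjusted p = 0.499, n = 4 per strain). RNR3 had levels of 6.51, 6.47, 6.50 and 7.32 in the mutant and 6.67, 6.57, 6.46 and 6.74 in the parent, and was above background on 2 mutant and 3 parent arrays. Mutant 7, where it was not above background, stood apart at 7.32. The difference was 0.09 ± 0.18 (SE, limma adjusted p = 0.755), with an interval of -0.31 to 0.49, and it was -0.13 without mutant 7 (0.399). RNR1 minus RNR3 was -0.43 to -1.23 in the mutant and -0.45 to -0.61 in the parent, and the difference of -0.21 did not pass (exact permutation p = 0.286, the same after adjustment). RNR3 is a close relative of RNR1 in sequence, and whether their probes bind each other's transcripts was not tested.

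Among the helicase subunits MCM3 was the gene that passed. Mcm3 is the subunit whose C terminus is known to contact the loading factors ORC and Cdc6 when the ring is recruited to an origin. Its net intensity was 74.5, 99.5, 9.5 and 5.0 units on mutants 1, 3, 5 and 7, and 324.0, 313.0, 76.0 and 35.5 units on parents 2, 4, 6 and 8. Its normalised log2 level was 6.79, 6.77, 6.63 and 6.68 in the mutant, and 7.48, 7.34, 7.06 and 7.47 in the parent. All mutant values lay below all parent values, and the gene was above background on mutants 1 and 3 and on parents 2, 4 and 6. The difference was -0.62 ± 0.12 (SE, n = 4 per strain, limma adjusted p = 0.00247), with a 95% interval of -0.88 to -0.37. Ranked by that normalised level, which the rank restates, the gene stood at percentile 47.9, 46.6, 42.1 and 45 in the mutant against 68.8, 65.3, 56.6 and 68.8 in the parent. By slide row the difference was -0.69, -0.57, -0.43 and -0.79, with gain as a block -0.62 (limma adjusted p = 0.00491), within gain 600 -0.67 (0.0341) and within gain 700 -0.38 (0.461). The scalings to the 75th percentile and to the median gave -0.54 and -0.60, with adjusted p = 0.595 and 0.243. On mutant 7 its 2 spots differed by 1.42 on the log2 scale, the widest gap between duplicate spots among the 10 genes, and 1 of them was not found by the scanner software.

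CDC54 (MCM4) and MCM6 read lower without passing. These subunits sit next to each other in the ring, and their paired interface forms part of the helicase motor. CDC54 had log2 levels of 6.46, 6.45, 6.17 and 6.74 on mutants 1, 3, 5 and 7, and 6.76, 6.75, 6.70 and 6.74 on parents 2, 4, 6 and 8. The parent arrays were close together, and the mutant arrays overlapped them through mutant 7 alone, where the gene was not above background. The difference was -0.28 ± 0.12 (SE, n = 4 per strain, limma adjusted p = 0.116), but it passed without mutant 7, at -0.42 (0.0186), within gain 600, at -0.39 (0.0169), and in 6 other alternative settings. It did not pass within gain 700, at -0.10 (0.923), nor with 75th percentile or median scaling, at -0.19 (0.852) and -0.25 (0.652). MCM6 had levels of 6.04, 6.03, 6.35 and 5.85 in the mutant, none above background, and 6.29, 6.34, 6.22 and 6.57 in the parent, of which parents 2 and 4 were above background. Mutant 5 overlapped the parent range (limma adjusted p = 0.130), and without it the gene passed (0.0300), as it did within gain 600 (0.0316). The difference of MCM6 was -0.13 within gain 700 (0.848), -0.01 with 75th percentile scaling (0.999) and -0.06 with median scaling (0.925).

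MCM2, CDC46 (MCM5) and CDC47 (MCM7) did not pass. Mcm2 and Mcm5 flank the gate through which the ring opens around DNA, and Mcm7 lies between Mcm3 and Mcm4. MCM2 had log2 levels of 6.82, 6.74, 6.52 and 7.07 on mutants 1, 3, 5 and 7 and 7.36, 6.97, 6.92 and 6.73 on parents 2, 4, 6 and 8, a difference of -0.21 ± 0.15 (SE, n = 4 per strain, limma adjusted p = 0.357) with an interval of -0.55 to 0.13. In slide rows 1, 2 and 3 the difference was -0.55, -0.23 and -0.41, and in row 4, where neither array was above background, it was 0.33. Without mutant 5 the difference was -0.13, without mutant 7 -0.34, without parent 2 -0.08 and without parent 8 -0.32, and none of these passed. CDC46 lay between 6.09 and 6.29 in the mutant and between 6.20 and 6.32 in the parent. Its interval, -0.23 to 0.19 around -0.02 (limma adjusted p = 0.890), was the narrowest of the 10, though the gene was above background on 1 mutant and 2 parent arrays. CDC47 lay between 5.80 and 6.14 in the mutant, never above background, and between 6.11 and 6.15 in the parent (limma adjusted p = 0.390). Over the 6 MCM genes the log2 differences ran from -0.62 to -0.02, with a median of -0.25. These include MCM6 and CDC47, whose readings in the mutant were never above background.

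**Figure D3:**
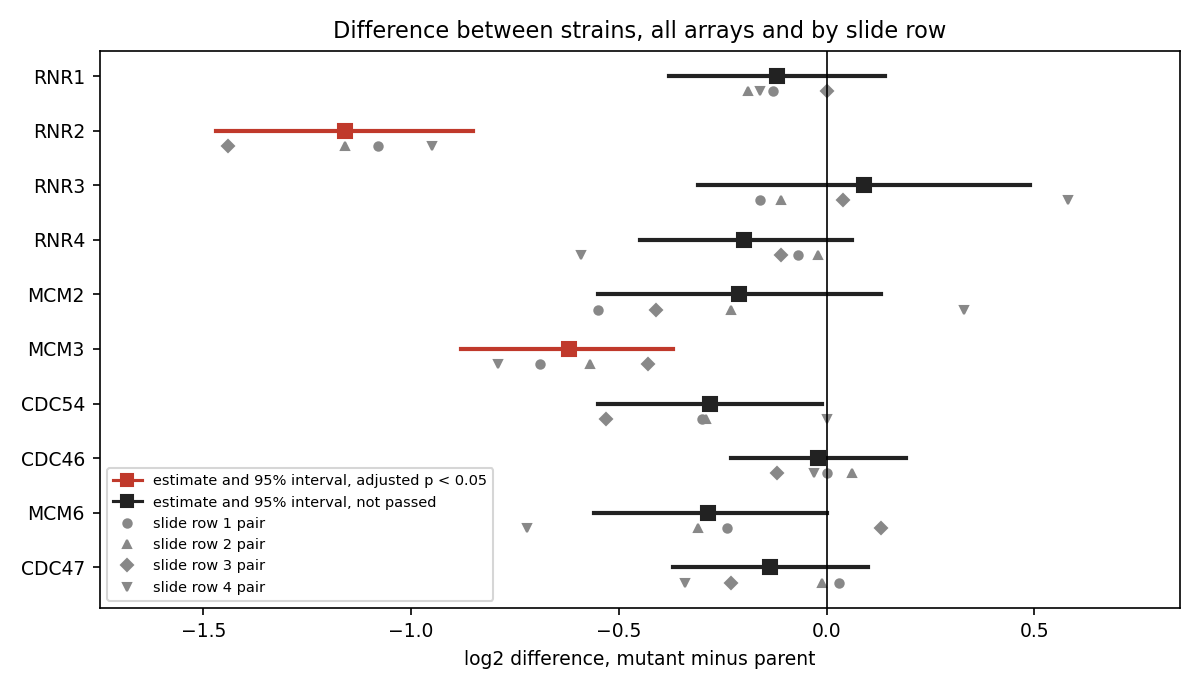
Log2 difference, mutant minus parent, for each gene, with its 95% interval from limma (squares and lines, red where adjusted p was under 0.05), and below each the 4 differences between the arrays that share a slide row (grey symbols). For RNR2 the 4 rows lie between -1.44 and -0.95 and for MCM3 between -0.79 and -0.43, while for RNR3, MCM2, CDC46, MCM6 and CDC47 some rows are above 0.

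The other steps of DNA replication and deoxyribonucleotide synthesis were read from lists of genes, taken over 140 measured genes in 12 lists, markers included. Of these, 15 were lower and 11 higher, beside 14% and 12.7% of all genes. Of 7 genes whose proteins inhibit, anchor or import the reductase, 1 fell, 0 rose and 6 did not pass, with a median log2 difference of -0.22. The one that fell was UME1 (WTM3), a relative of the nuclear anchor Wtm1, by 0.38 (limma adjusted p = 0.0215). UME1 was above background on only 2 mutant arrays. SML1, which encodes the inhibitor of Rnr1, was above background on all 8 arrays, at -0.22 (0.404), and WTM1 was at 0.22 (0.394). HUG1, a damage-induced inhibitor, was above background on no array.

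Of 18 genes for RNR transcription and the replication checkpoint, 2 were lower, 0 higher and 16 did not pass, with a median of -0.10. RAD53, the effector kinase of the checkpoint, had a mean log2 level of 6.08 in the mutant and 6.67 in the parent (limma adjusted p = 0.00726). No mutant and 3 parent arrays had it above background, so that its fold is not known. The fold of MOT3, a repressor of hypoxic genes, is likewise not known (adjusted p = 0.0452), and it did not pass with slide row as a block (0.0592). RFX1, the repressor of the damage-inducible RNR genes, was at -0.07 (0.681), DUN1, the kinase that relieves it, at 0.31 (0.176), and CRT10 at -0.13 (listed as MOR1, 0.432).

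Genes that supply the reductase with electrons or iron moved in both directions: of 10, 3 fell, 4 rose and 3 did not pass, with a median of 0.01. GRX3 and GRX4, which encode monothiol glutaredoxins of iron delivery, differed by -0.81 ± 0.12 and -0.90 ± 0.20 (SE, 4 arrays each, limma adjusted p = 4.53e-04 and 0.00591). GRX4 was above background on only 2 mutant arrays. DRE2, for an iron-sulfur protein that in yeast is needed to build the Rnr2 cofactor, differed by -0.94 ± 0.14 (5.87e-04). TRX2, a cytosolic thioredoxin, rose by 0.83 (0.00712), GLR1, glutathione reductase, by 0.39 (0.0125), and TTR1, the glutaredoxin now called GRX2, by 0.36 (0.0287). GRX1, another glutaredoxin, rose by 0.69 (0.0373) and is named here with its value known. TRX1, the other cytosolic thioredoxin, did not pass, at -0.18 (0.357). Of 10 other genes of deoxyribonucleotide synthesis 2 fell, 1 rose and 7 did not pass, with a median of 0.03. ADK1, adenylate kinase, fell by 0.89 (1.93e-04) and DFR1, dihydrofolate reductase, by 0.41 (0.0102), while YNK1, nucleoside diphosphate kinase, rose by 0.52 (0.02). DFR1 was above background on only 2 mutant arrays.

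Around the MCM ring, the 9 genes of origin licensing held 1 that fell, 1 that rose and 7 that did not pass, with a median of -0.13. TAH11, which encodes the MCM loading partner Cdt1, fell by 0.63 (limma adjusted p = 0.00803), and ORC4, a subunit of the origin recognition complex, rose by 0.84 (0.0167). ORC4 was above background on only 2 mutant arrays, and its difference was 0.64 without mutant 7 and 0.46 with array weights. CDC6 was above background on no array. None of 16 genes for helicase activation and fork protection passed (limma, and 0 at an unadjusted p under 0.05), with a median of -0.05. In the replisome 6 of 28 genes were lower, 1 higher and 21 did not pass, with a median of -0.08. Among all genes 14% were lower and 12.7% higher, and no test of the list was run. RFA2 and RFA3, subunits of the single-strand binding protein, fell by 0.80 (0.00345) and 0.42 (0.0104), and RFC3, of the clamp loader, by 0.63 (0.0105). Each of them was above background on only 2 mutant arrays. POL30, the sliding clamp PCNA, and TOP1, a DNA topoisomerase, were lower (0.0120 and 0.0225) but above background on no mutant array. RAD27, the flap endonuclease, likewise named with its value known, fell by 0.44 (0.0291), and TOP2 rose by 0.48 (0.0159). RAD27 was above background on only 1 mutant array and TOP2 on 2.

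**Figure D4:**
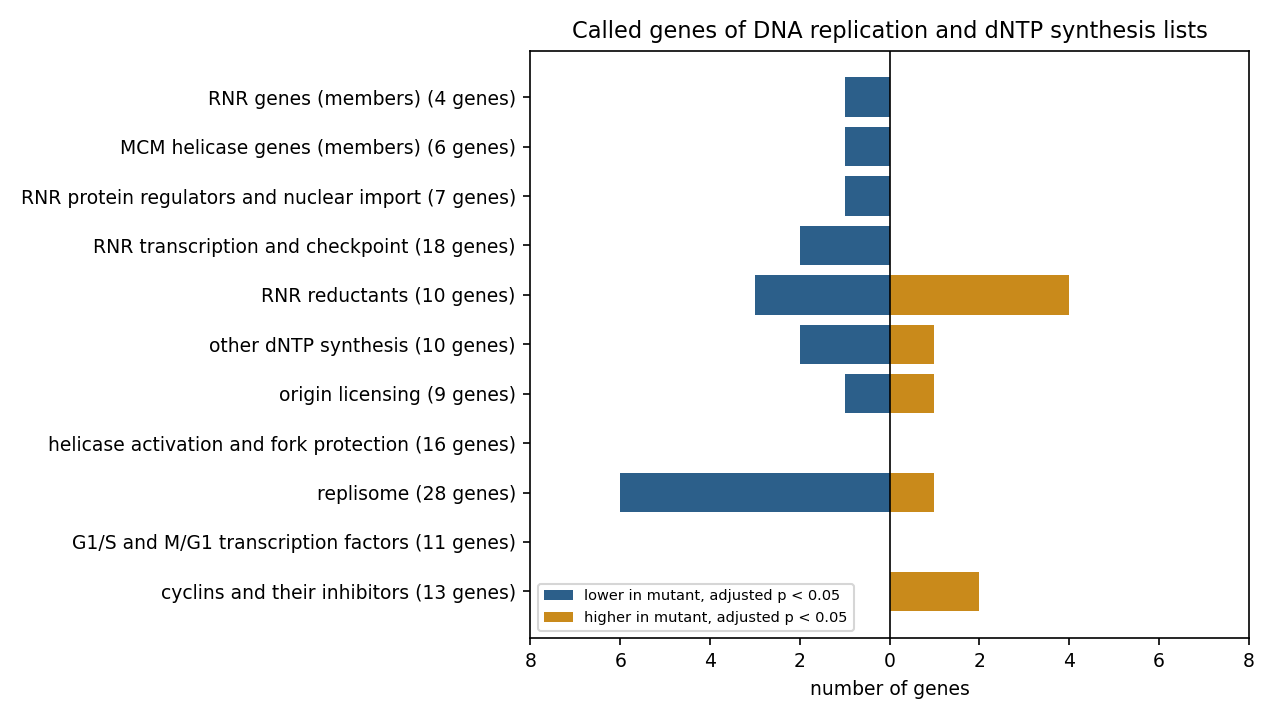
Number of genes per list lower (blue, left) and higher (orange, right) in the mutant at an adjusted p under 0.05, with the number measured in brackets. The replisome list has 6 lower and 1 higher, the reductant list 3 lower and 4 higher, and the lists of helicase activation and of G1/S and M/G1 transcription factors have none. Among all genes 14% were lower and 12.7% higher.

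None of 11 genes for transcription factors of G1/S and M/G1, among them the MBF subunits MBP1 and SWI6 and the MCM gene activator MCM1, passed (limma, and 2 at an unadjusted p under 0.05), with a median of 0.02. Despite its name MCM1 is no helicase subunit, and it was at -0.16 (0.682). Of 13 cyclin genes and their inhibitors 2 rose, 0 fell and 11 did not pass, with a median of 0.15. SIC1, the inhibitor of S-phase cyclin kinase, was above background on all 8 arrays and rose by 0.91 ± 0.19 (SE, 4 arrays per strain; adjusted p = 0.00413 in limma). CLB1, a mitotic cyclin, rose by 0.49 (0.0190) and was above background on only 2 mutant arrays. CLB5, the main S-phase cyclin, was at -0.34 (0.0712), and CLN2, CLB2, CLB6 and CLN3 were above background on no array. With 75th percentile or median scaling none of the 15 lower and 11 higher calls of these 12 lists remained. Leaving out 1 array, the calls of RAD53, GRX3, GRX4, DRE2, TRX2, ADK1, DFR1, TAH11, RFA2, RFA3, RFC3, TOP2, SIC1 and STE2 held in 8 of 8 cases, those of GLR1, ORC4 and POL30 in 7, those of YNK1 and CLB1 in 5, those of UME1, TTR1 and TOP1 in 4, and those of MOT3 and BAR1 in 1.

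The genes whose levels over the 8 arrays were most like the mean of RNR2 and RNR4, among 1858 genes above background on at least 6 arrays, were COX9, COX7, RPS7A, RPS9B and ATP17, at a Pearson r of 0.997 for the first and 0.988 for the last. Those most like the mean of the 6 MCM genes were YCL033C, RPS1A, MOG1, COX5A and RPS23A, at 0.979 to 0.975. All 10 were lower in the mutant, but they were picked for likeness to means that were lower themselves, so their direction adds nothing. RNR2 and RNR4 had an r of 0.530 with each other over the 8 arrays and -0.226 within strains. The points share strain, array and normalization, so these values are a description.

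Genes next to the 10 on the chromosome, by their order in the RefSeq table of assembly R64 and named here for position, were read as a check of position. Of 20 measured neighbours 3 fell, 3 rose and 14 did not pass, near the shares of all genes (14% lower and 12.7% higher). RNR2 lies between YJL027C, at 0.19 (limma adjusted p = 0.353) and above background on no array, and RRN7, at -0.11 (0.530). MCM3 lies between YEL033W, above background on no array, and SPF1, which fell by 0.42 (0.00814).

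**Figure D5:**
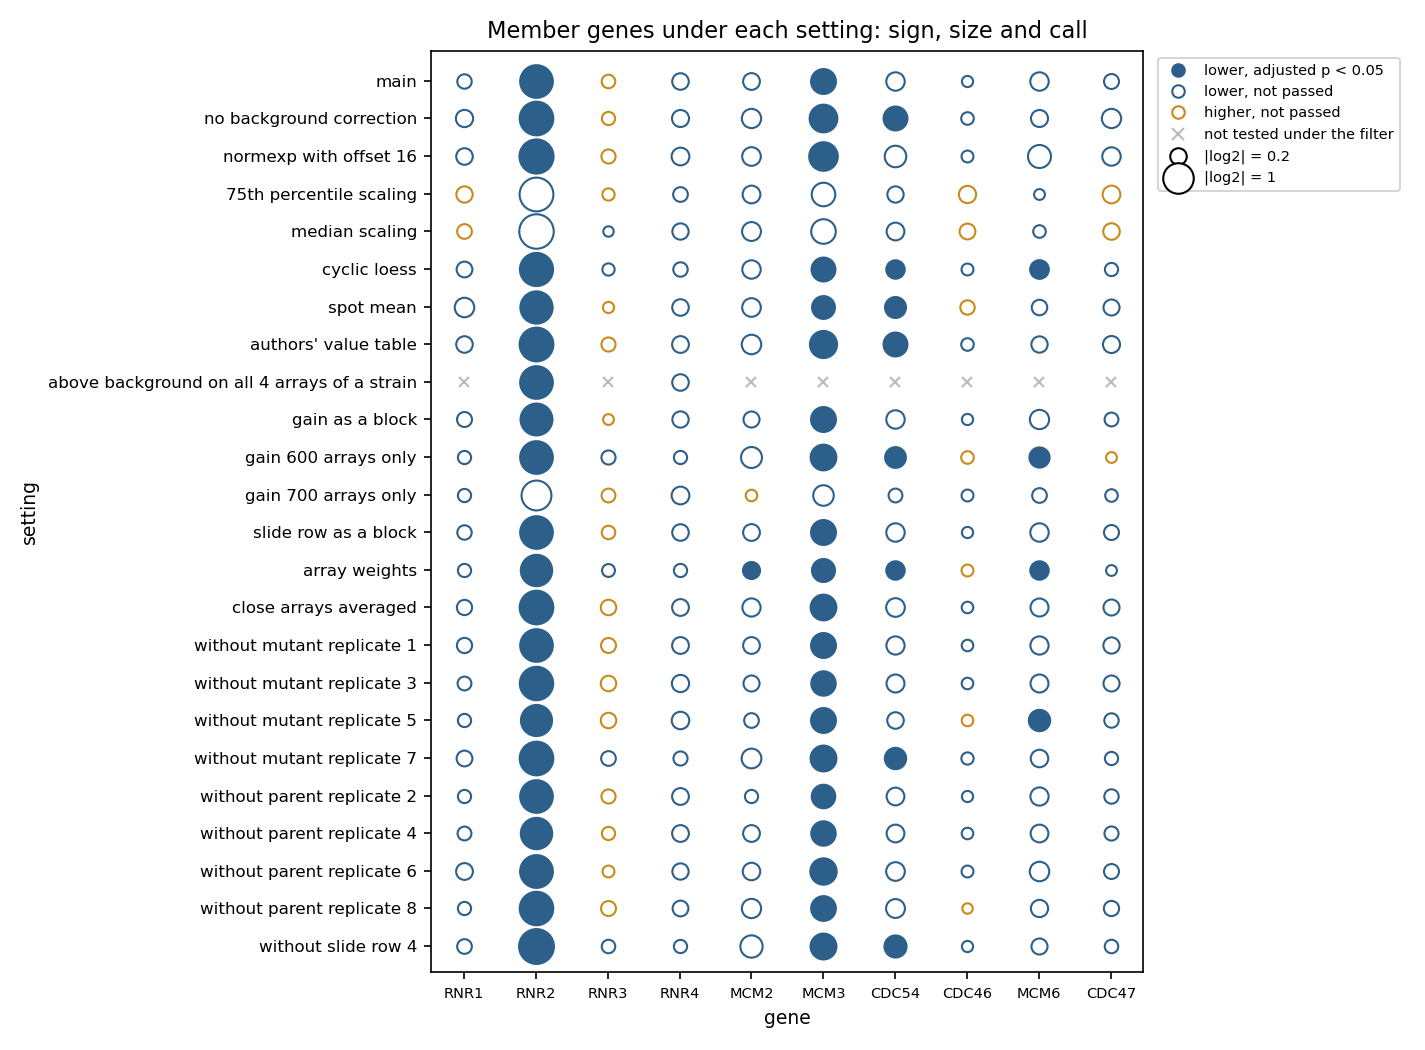
Each column is a gene and each row a setting of the processing or a left-out array. Circles grow with the size of the log2 difference, blue is lower and orange higher in the mutant, and filled circles passed an adjusted p under 0.05, and crosses mark genes that a filter left out. RNR2 and MCM3 are blue in every row where they were tested, and open under 75th percentile scaling, median scaling and the gain 700 arrays alone.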

How the data were processed

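Cy5-labelled cRNA was made from 0.5 µg of total RNA, per the labels' protocols, and each sample had its own array. Per the file headers, the deposited scanner tables are from GenePix Pro 6.1.0.4 (635 nm, 5 µm pixels, local background, no normalization) and hold spot intensity on a linear scale, with, for every spot, a score of signal to noise and the percent of its pixels that were saturated. A deposited value table holds intensity per probe, and its values read as linear and not centred. Whether they were quantile-normalized or had a constant subtracted was not tested. The median of the value table's columns, in the order mutant 1, 3, 5, 7 and parent 2, 4, 6, 8, was 75.2, 75.1, 78.4, 79.4, 76.6, 76.1, 77.0 and 75.5. The array build and the authors' normalization tool are not given in the sources used here.

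Spot medians were corrected with normexp (offset 50), taken to log2, quantile-normalized and averaged over 2 spots in limma 3.58.1 (R 4.3.3). The offset makes changes of dim genes read smaller than they are. The strains were compared with lmFit and eBayes without covariates, and limma gave every adjusted p of a gene. For a gene above background in 1 strain alone, a fold is given only as a bound, against the lowest level above background per array, and left out where that is under 1. The steps were tested on simulated data, with the same noise settings for every array. The real arrays may differ in noise, so the simulated rates need not hold for them. Among the brightest 30% of genes, 23 of 50 log2 changes of 0.5 and 47 of 50 of 1 were called. Among the other 70%, 7 of 50 and 25 of 50 were called, and 37 of 50 at a log2 change of 3. Of 5856 unchanged genes 19 were called. A dim gene that did not pass may thus still differ. The 10 genes and the lists were chosen with earlier results of these data known. Named genes were the 10, up to 6 called genes of each other list with the smallest adjusted p, and the 5 most correlated with each mean; genes outside this are given with their values as list members or said to be so. Of 6256 systematic names, 5756 were in a RefSeq table of assembly R64, used for names and neighbours. The planned search of promoters was not run, and no sequences are used here. Alternatives were background correction, scaling, spot means, the value table, filters on dim genes, gain, slide row, array weights, averaging close arrays and leaving out each array. Leaving out slide row 4 was added after seeing the data.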

Additional observations from a re-analysis of the deposited data

Results flagged for a closer look

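In 3 of the 20 sets of 4 arrays (10 genes in 2 strains), 1 array stood apart from the other 3 by more than Dixon's 95% limit, which chance gives in about 1 set in 20. RNR3 read 7.32 on mutant 7, where the nearest other mutant array was at 6.51. RNR4 read 7.44 on mutant 7, where the nearest was at 7.80. CDC46 read 6.09 on mutant 5, where the nearest was at 6.26. None of these 3 readings was above background. Without mutant 7 the log2 difference between strains was -0.13 for RNR3 and -0.11 for RNR4, and without mutant 5 it was 0.03 for CDC46, and none of these passed.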

How the results depend on the processing

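RNR2 stayed lower in 23 of 23 alternatives (-1.34 to -0.95) and passed in 20, and MCM3 stayed lower in 22 of 22 (-0.86 to -0.38) and passed in 19. Both calls ended with 75th percentile scaling (-1.25 and -0.54), median scaling (-1.31 and -0.60) and the gain 700 arrays alone (-0.95 and -0.38), where 57, 37 and 0 genes of the whole array passed by limma (760, 751 and 647 at an unadjusted p under 0.05) and 0 of the 10 and 0 of the other listed genes did. The cause was not tested, except that gain 700 leaves 2 mutant arrays and 1 parent array, whose spread is then assumed to be that of the mutant. CDC54 passed with no background correction (-0.56), cyclic loess (-0.28), spot means (-0.40), the authors' value table (-0.56), gain 600 (-0.39), array weights (-0.28) and without slide row 4 (-0.46), and ran from -0.42 to -0.20 when 1 array was left out. MCM6 passed with cyclic loess (-0.29), gain 600 (-0.36) and array weights (-0.28), and ran from -0.42 to -0.23, and MCM2 passed with array weights (-0.22). Of the 10 genes, 4 were thus lower with cyclic loess (14.2% of all genes), 4 within gain 600 (15.2%) and 5 with array weights (22.1%), where 3034 genes of the whole array passed and 30 of the other listed genes were lower and 17 higher. Array weights rest on few mutant arrays, with weights of 3.15 and 7.85 for mutants 1 and 3 and 0.24 and 0.16 for mutants 5 and 7. A filter that keeps genes detected on 4 of 4 arrays of either strain left 1536 genes, with 738 calls and 27.9% lower. Of the 10 genes it tested RNR2 and RNR4 alone, and RNR2 was lower. Of the other listed genes 6 were lower and 6 higher. A filter that asks for 8 of 8 arrays left 582 genes and 298 calls. With it 0 of the other listed genes were lower and 4 higher, and none of the 10 was tested. With mutants 1 and 3 and parents 6 and 8 averaged, the other listed genes were 8 lower and 4 higher, and with 1 array left out 11 to 16 lower and 6 to 12 higher, among 1210 to 1708 calls in all. RNR2 minus RNR4 stayed between -1.26 and -0.71, and its adjusted p fell to 0.0286 (at -0.96) where the filter left 1 pair to test.

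Of the 8 genes that did not pass, RNR4, CDC54 and MCM6 read lower in every alternative in which they were tested, and the other 5 changed sign in at least 1. RNR1 turned to 0.19 with 75th percentile and 0.13 with median scaling, CDC47 to 0.25 and 0.20, and CDC46 to 0.23 and 0.17. CDC46 was also at 0.12 with spot means, 0.06 within gain 600 and 0.04 with array weights, and -0.05 to 0.03 with 1 array left out, and CDC47 was at 0.01 within gain 600. RNR3 was just below 0 with median scaling (0.00 when rounded), and at -0.05 with cyclic loess, -0.11 within gain 600, -0.07 with array weights, -0.09 without slide row 4 and -0.13 to 0.16 with 1 array left out. MCM2 was at 0.03 within gain 700. RNR1 minus RNR3 was 0.14 with both scalings and 0.03 within gain 600. The labels pair no samples. Slide row as a block, which sets each mutant array against the parent array beside it, kept the calls of RNR2 and MCM3 (-1.16 and -0.62). Of the genes named by the rule from the other lists, it ended the call of MOT3 alone. In slide row 3 the gain differed too (700 for mutant 5 and 600 for parent 6), so strain and gain cannot be told apart in that row. The median over all genes was 0.21 with 75th percentile and 0.15 with median scaling, against 0.05 in the reported values. Exact tests of the paralog differences were not run with gain or slide row as a block or with array weights. Low signal is a limit, as 8 of the 10 genes were not above background on every array of either strain, and a gene that misses the threshold may still differ.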
